A study of Mus musculus with 12 samples.

Results

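The creatine and purine nucleotide energy genes are 10 genes whose products make and carry creatine or buffer the adenine nucleotides of the cell: Gatm, Gamt, Slc6a8, Ckm, Ckmt2, Ckb, Ampd1, Ampd2, Ampd3 and Ak1. They were chosen by name and taken from the deposited count table by symbol, where all 10 were found among 24421 entries. All 10 passed the filter on low counts and were among the 13937 genes tested. The RNA came from the tibialis anterior, a fast hindlimb muscle, of 12 male mice aged 4 months. The groups were 6 C57Bl/6 mice (WT) and 6 mdx/mTR mice, with 1 library a mouse. In mdx mice Dmd, which codes for dystrophin, is disrupted, and mTR stands for the telomerase RNA, whose gene is Terc. The labels give no more than the name mdx/mTR for that strain: the alleles, the generation of telomerase loss and the breeding relation to the C57Bl/6 mice are not stated, so the effects of the alleles cannot be told apart. The labels do not say whether the mice came from separate litters or cages, and p-values measure the spread between these samples only.

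Creatine is made in 2 steps, by Gatm and then Gamt, largely in kidney, pancreas and liver, and muscle takes it up through the transporter Slc6a8. Creatine kinases pass phosphate between ATP and creatine, with Ckm in the muscle cytosol, Ckmt2 in muscle mitochondria and Ckb in brain and in muscle precursors. Adenylate kinase (Ak1) turns ADP into ATP and AMP, and the AMP deaminases (Ampd1 in muscle fibres, Ampd2 and Ampd3 in other tissues) turn AMP into IMP, the entry of the purine nucleotide cycle.

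Library totals ran from 35136327 to 60330410 counts, and the lowest count of any of the 10 genes in any library was 172. Levels are given as CPM, counts relative to the library size after scaling by trimmed means of M-values (TMM). Calls use an adjusted p below 0.05 in edgeR's quasi-likelihood test. The mutated gene matched the labels: Dmd had 228 to 244 CPM in WT and 35.2 to 56.4 CPM in mdx/mTR. Terc had 2 counts in all in the WT libraries and 0 in the mdx/mTR libraries, too few to check the labels. The 8 fast myofibre markers were all detected, and their summed level was 176322 to 207692 CPM in WT and 140313 to 193626 CPM in mdx/mTR. In such bulk samples, fewer cells of a type and less RNA per cell cannot be told apart.

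Of the 10 genes, 5 were higher in mdx/mTR (Ampd3, Gamt, Gatm, Ckb and Ampd2), 1 was lower (Ckmt2) and 4 did not pass the threshold (Ckm, Ampd1, Slc6a8 and Ak1). Over all genes tested, 25.0% were higher and 23.4% were lower (3479 and 3257 genes; 5596 and 1560 when libraries were scaled by their totals alone, where 6 of the 10 genes were higher and 0 lower). For 3 of the 10 genes (Ampd3, Gamt and Gatm) every mdx/mTR mouse lay above every WT mouse, against 12.6% of all genes tested. No gene of the 10 had every mdx/mTR mouse below every WT mouse, which held for 12.6% of all genes tested. The median log2 fold change of the 10 was 0.24, against 0.01 over all genes tested. Per kilobase of transcript, the 5 genes that rose all had low levels in WT muscle, between 1.81 and 7.45 CPM per kb, and the 5 others lay between 56.8 and 5540 CPM per kb. In the authors' deposited table, where 50.1% of genes had an adjusted p below 0.05, the same 6 of the 10 genes did so, in the same directions.

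**Figure D1:**
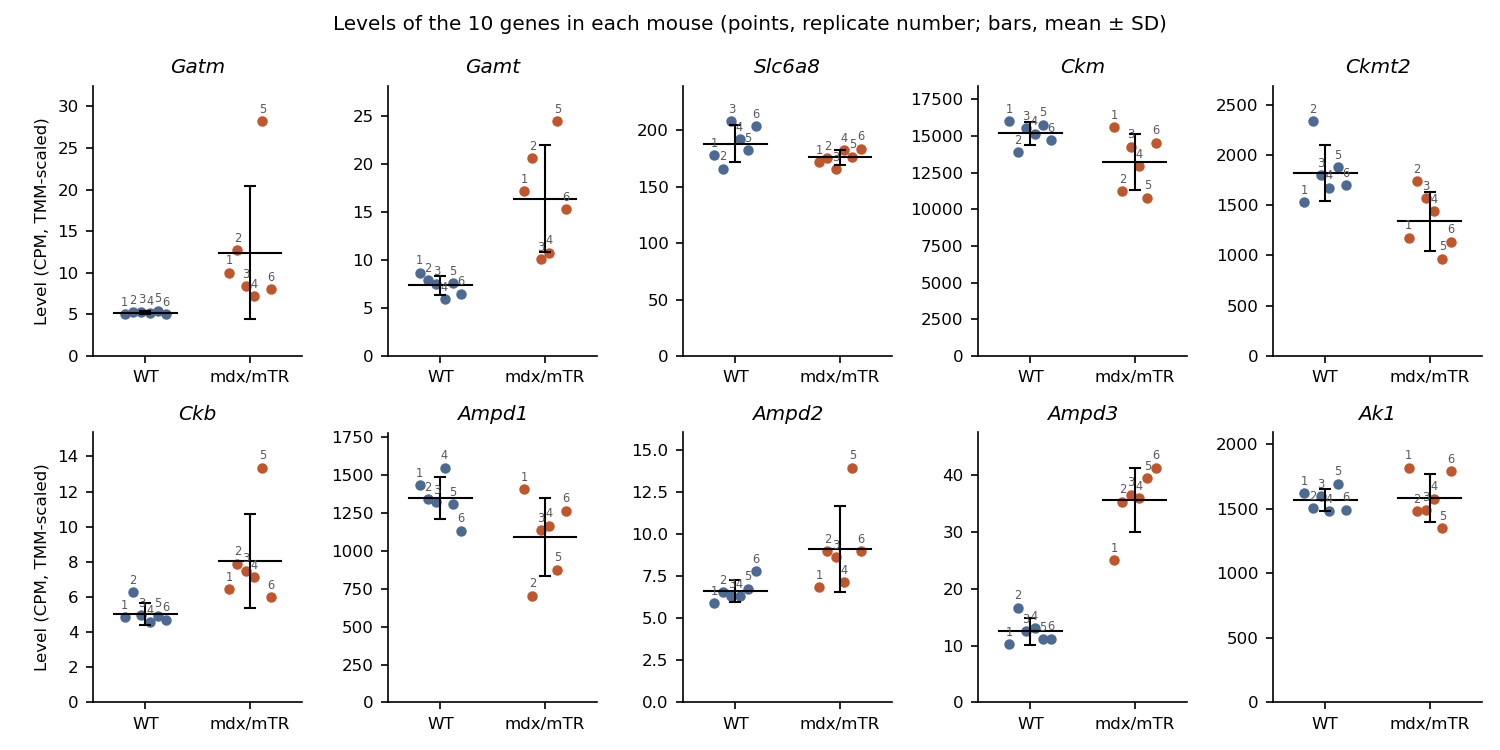
Level of each gene (CPM after TMM scaling, linear axis from 0) in each of the 6 WT and 6 mdx/mTR mice; numbers are replicate numbers, lines and bars are the mean ± SD. Gatm, Gamt and Ampd3 show 2 groups that do not overlap, and in Gatm, Ckb and Ampd2 mdx/mTR replicate 5 stands above the other mice.

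The genes of creatine synthesis rose, from low levels. Gatm codes for the arginine:glycine amidinotransferase that makes guanidinoacetate, the first and rate-limiting step, and lies at chr2:122594467-122611303 on the minus strand of GRCm38. It had 5.03, 5.20 and 5.46 CPM (lowest, median and highest) in WT. The mdx/mTR replicates 1 to 6 had 10.02, 12.7, 8.39, 7.21, 28.2 and 8.05 CPM. The groups did not overlap, and replicate 5 had more than any other mouse. The means were 5.21 ± 0.17 CPM in WT against 12.4 ± 7.98 CPM in mdx/mTR (mean ± SD, n = 6 mice), a log2 fold change of 1.25 ± 0.29 (SE; 2.38-fold; edgeR, adjusted p = 0.0029). Without replicate 5 the log2 fold change was 0.83 and the gene was still called. WT mice differed from each other in Gatm by a coefficient of variation (CV, SD over mean) of 3.25% and mdx/mTR mice by 64.2%.

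Gamt codes for guanidinoacetate methyltransferase, which completes creatine, and lies at chr10:80258151-80261012 on the minus strand. Its lowest, median and highest levels were 5.92, 7.58 and 8.70 CPM in WT against 10.1, 16.2 and 24.5 CPM in mdx/mTR. The groups did not overlap, and mdx/mTR replicates 5 and 2 were again the highest. The mean went from 7.36 ± 1.01 to 16.4 ± 5.60 CPM (mean ± SD, n = 6 mice), a log2 fold change of 1.16 ± 0.20 (edgeR, adjusted p = 0.00033).

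The promoters of Gatm and Gamt are shown as those of the genes of creatine synthesis, which both rose with groups that did not overlap. They run from 250 bases before to 50 bases after the start in RefSeq (GRCm38.p6), 5′ to 3′ on the gene's strand, at chr2:122611228-122611527 and chr10:80260963-80261262. Promoters were held for 8 of the 10 genes, not for Slc6a8 and Ampd1. Those of Ampd3, which also rose without overlap, are not shown. Capitals mark matches on either strand to the E-box CANNTG, which basic helix-loop-helix factors such as the myogenic factors bind, the GC box GGGCGG, the TATA box TATAAA and the CCAAT box CCAAT.
Gatm: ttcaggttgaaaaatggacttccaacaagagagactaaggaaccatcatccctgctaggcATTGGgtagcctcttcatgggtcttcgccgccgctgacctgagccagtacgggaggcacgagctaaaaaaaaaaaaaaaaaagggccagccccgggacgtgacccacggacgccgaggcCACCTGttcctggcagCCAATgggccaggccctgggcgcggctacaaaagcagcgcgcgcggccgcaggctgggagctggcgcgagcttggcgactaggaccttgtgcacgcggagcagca
Gamt: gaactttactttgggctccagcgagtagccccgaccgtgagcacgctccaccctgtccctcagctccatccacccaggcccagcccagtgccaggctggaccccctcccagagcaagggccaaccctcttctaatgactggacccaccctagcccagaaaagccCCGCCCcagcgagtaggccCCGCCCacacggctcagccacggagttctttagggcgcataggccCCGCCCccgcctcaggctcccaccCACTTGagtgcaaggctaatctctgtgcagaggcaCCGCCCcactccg
Gatm held 1 E-box and 2 CCAAT boxes, and Gamt held 1 E-box and 4 GC boxes. Of 32851 mouse promoters of this length, 72.3% held an E-box, 35.7% a GC box and 37.4% a CCAAT box, so these matches are common. The first CCAAT box of Gatm began 190 bases before the start, and the GC boxes of Gamt lay from 86 bases before to 37 bases after it. The GC content was 60.7% in Gatm and 66.0% in Gamt, above the median of 52.7% over the promoters.

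The transporter gene was not called. Slc6a8 brings creatine into the cell against its gradient and lies at chrX:73673150-73682502 on the plus strand. The lowest, median and highest levels of Slc6a8 were 166.1, 187.3 and 208.2 CPM in WT against 165.5, 176.2 and 183.9 CPM in mdx/mTR. Replicate 3 of mdx/mTR lay just below all WT mice and the other 5 lay inside the WT range. The log2 fold change was -0.10 ± 0.06 (edgeR, adjusted p = 0.18). It was 0.06 when libraries were scaled by their totals alone, a scaling that moved the median of all genes tested up by 0.16, and -0.13 (adjusted p = 0.0499) without WT replicate 2. Slc6a8 was the gene with the least spread among the mdx/mTR mice, with a CV of 3.84% against 8.52% in WT.

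Among the creatine kinases, the mitochondrial form fell, the brain form rose from a very low level, and the muscle form did not pass the threshold. Ckm, the cytosolic muscle creatine kinase that binds the M line of the sarcomere, lies at chr7:19404776-19422841 on the plus strand. It took 1.44% ± 0.05 of WT counts and 1.39% ± 0.13 of mdx/mTR counts (mean ± SD, n = 6 mice). Its lowest, median and highest levels were 13917, 15349 and 16018 CPM in WT against 10802, 13606 and 15610 CPM in mdx/mTR. Replicates 5, 2 and 4 of mdx/mTR lay below all WT mice, and the other 3 lay inside the WT range. The mean was 15192 ± 770.5 CPM in WT against 13240 ± 1921 CPM in mdx/mTR, a log2 fold change of -0.20 ± 0.10 (edgeR, adjusted p = 0.12), and -0.05 with library totals alone. An antisense gene (A930016O22Rik) overlaps 15.5% of the exon bases of Ckm and had 29.2 CPM in WT against 28.1 CPM in mdx/mTR.

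Ckmt2 codes for the sarcomeric mitochondrial creatine kinase of the intermembrane space, next to the ADP/ATP carrier, and lies at chr13:91853387-91876885 on the minus strand. Its levels in WT replicates 1 to 6 were 1530, 2337, 1798, 1676, 1877 and 1697 CPM. In mdx/mTR they were 1177, 1738, 1571, 1442, 969.5 and 1138 CPM. Replicates 1, 4, 5 and 6 of mdx/mTR lay below all WT mice, replicates 2 and 3 lay inside the WT range, and WT replicate 2 was the highest of all. That mouse also had the highest sums in WT of the endothelial (579 CPM), fibroblast (1574 CPM), smooth muscle (417 CPM), erythroid (42.6 CPM), Schwann cell (51.6 CPM) and slow myofibre (221 CPM, of which Myl3 made 156.7) markers and the lowest of the fast myofibre markers (176322 CPM). Their part in its level was not tested. The mean fell from 1819 ± 279.6 to 1339 ± 292.2 CPM (mean ± SD, n = 6 mice), a log2 fold change of -0.44 ± 0.14 (0.736-fold; edgeR, adjusted p = 0.018). The call was lost when libraries were scaled by their totals alone (log2 fold change -0.29, adjusted p = 0.10), and Ckmt2 was -0.36 without WT replicate 2 and -0.37 without mdx/mTR replicate 5, both still called. An antisense gene (1700119I11Rik) overlaps 5.65% of its exon bases.

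Ckb, the brain form of the cytosolic creatine kinase, which is also found in myoblasts, lies at chr12:111669361-111672338 on the minus strand. The levels of Ckb were (lowest, median and highest) 4.56, 4.90 and 6.28 CPM in WT against 6.01, 7.30 and 13.4 CPM in mdx/mTR. Of the 6 mdx/mTR mice, 5 lay above all WT mice, and the groups overlapped only through WT replicate 2 and mdx/mTR replicate 6. The mean rose from 5.05 ± 0.62 to 8.05 ± 2.69 CPM (mean ± SD, n = 6 mice), a log2 fold change of 0.67 ± 0.17 (edgeR, adjusted p = 0.0057) and of 0.47 without mdx/mTR replicate 5. Of the 50-base stretches of its transcript, 21.9% also occur in pseudogenes (Gm12892, Ckb-ps1 and Ckb-ps2), so the counts of Ckb are uncertain to that extent.

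The promoters of Ckmt2 (chr13:91876836-91877135) and Ckb (chr12:111672289-111672588) are shown as those of the creatine kinases that moved in opposite directions, with the same marks.
Ckmt2: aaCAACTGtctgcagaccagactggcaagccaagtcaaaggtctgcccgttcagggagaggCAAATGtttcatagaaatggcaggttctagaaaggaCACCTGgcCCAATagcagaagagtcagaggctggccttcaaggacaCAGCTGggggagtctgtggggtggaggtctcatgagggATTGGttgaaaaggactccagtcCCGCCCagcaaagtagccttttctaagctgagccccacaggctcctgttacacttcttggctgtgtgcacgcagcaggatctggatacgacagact
Ckb: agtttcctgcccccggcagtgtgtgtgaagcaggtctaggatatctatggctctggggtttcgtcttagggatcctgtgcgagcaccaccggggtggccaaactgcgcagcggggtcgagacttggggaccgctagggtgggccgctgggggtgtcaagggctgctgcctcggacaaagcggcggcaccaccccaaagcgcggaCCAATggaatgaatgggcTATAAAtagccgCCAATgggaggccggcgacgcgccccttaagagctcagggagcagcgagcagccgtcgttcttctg
Ckmt2 held 4 E-boxes, 1 GC box and 2 CCAAT boxes, and Ckb held 1 TATA box and 2 CCAAT boxes with no E-box in this window. The TATA box of Ckb began 28 bases before the start, inside a match to the MEF2 motif, the site of a family of muscle and brain factors. A TATA box was held by 13.6% of the promoters and a MEF2 motif by 1.86%. The GC content was 53.7% in Ckmt2 and 63.0% in Ckb.

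Shares within the families do not depend on how libraries were scaled, so they were compared between mice with exact permutation tests, 2-sided and adjusted over the 4 shares; the smallest p this design allows is 0.0022. Ckb took 0.0335% ± 0.0058 of the counts of Ckm and Ckb together in WT against 0.0639% ± 0.0311 in mdx/mTR (mean ± SD, n = 6 mice; exact permutation test, p = 0.0065, adjusted p = 0.013). Of the mdx/mTR mice, 4 lay above all WT mice, the highest being replicate 5 at 0.123%, and without that mouse the difference of the means went from 0.0305 to 0.0186 percentage points. Ckb was the minor form by far in each of the 12 mice. Ckmt2 took 10.7% ± 1.91 of the counts of Ckm and Ckmt2 in WT against 9.30% ± 2.37 in mdx/mTR, a difference of -1.43 points (exact permutation p = 0.28, adjusted p = 0.28). The groups overlapped, with 8.72% to 14.4% in WT and 7.01% to 13.4% in mdx/mTR, and replicate 2 was the highest mouse in both groups. Without mdx/mTR replicate 2 the difference was -2.24 points (exact permutation, adjusted p = 0.046), and without WT replicate 2 it was -0.697 points (exact permutation, adjusted p = 0.54).

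**Figure D2:**
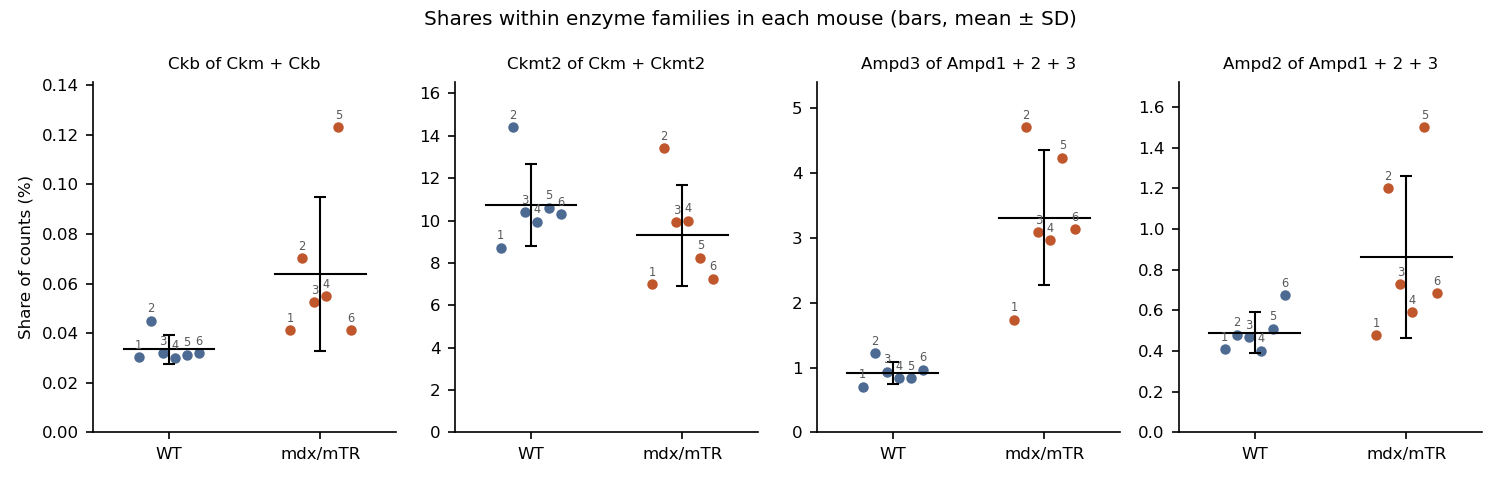
Share of counts (%, linear axis from 0) of Ckb among Ckm and Ckb, of Ckmt2 among Ckm and Ckmt2, and of Ampd3 and Ampd2 among the 3 AMP deaminase genes, in each mouse (numbers are replicate numbers) with the mean ± SD of each group of 6. The Ampd3 share is 0.704% to 1.22% in WT and 1.74% to 4.71% in mdx/mTR, without overlap; the Ckmt2 shares overlap.

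Of the AMP deaminases, Ampd3 and Ampd2 rose and the muscle form Ampd1 did not pass the threshold. Ampd3, the form first known from erythrocytes, lies at chr7:110768206-110812405 on the plus strand. It had 10.2, 16.7, 12.6, 13.1, 11.2 and 11.2 CPM in WT replicates 1 to 6. The mdx/mTR replicates 1 to 6 had 25.1, 35.3, 36.6, 36.0, 39.5 and 41.3 CPM. The groups were far apart, with mdx/mTR replicate 1 the lowest of its group and still well above WT replicate 2. The mean rose from 12.5 ± 2.30 to 35.6 ± 5.65 CPM (mean ± SD, n = 6 mice), a log2 fold change of 1.51 ± 0.13 (2.85-fold; edgeR, adjusted p = 1.6e-06), the largest of the 10 genes. Ampd3 was also the only gene of the 6 called ones whose CV was smaller in mdx/mTR (15.9%) than in WT (18.5%). Rnf141, on the opposite strand, overlaps its end and had 2.999 CPM in WT against 3.16 CPM in mdx/mTR.

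Ampd1, the myoadenylate deaminase of muscle fibres, lies at chr3:103074014-103099720 on the plus strand. Its lowest, median and highest levels were 1135, 1333 and 1550 CPM in WT against 705.6, 1152 and 1409 CPM in mdx/mTR. Replicates 2 and 5 of mdx/mTR lay below all WT mice and the other 4 lay inside the WT range. The mean was 1349 ± 138.2 CPM in WT against 1094 ± 258.5 CPM in mdx/mTR, a log2 fold change of -0.30 ± 0.14 (edgeR, adjusted p = 0.091). It was -0.39 (adjusted p = 0.031) without mdx/mTR replicate 1, the highest of its group, and -0.20 (adjusted p = 0.15) without replicate 2, the lowest. With library totals alone it was -0.16 (adjusted p = 0.28).

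Ampd2, the form best known from liver and brain, lies at chr3:108074062-108086651 on the minus strand. Its lowest, median and highest levels were 5.92, 6.44 and 7.80 CPM in WT against 6.87, 8.82 and 14.0 CPM in mdx/mTR. The groups overlapped: 4 mdx/mTR mice lay above all WT mice, and replicates 1 and 4 lay inside the WT range. The mean rose from 6.61 ± 0.65 to 9.10 ± 2.55 CPM (mean ± SD, n = 6 mice), a log2 fold change of 0.46 ± 0.15 (edgeR, adjusted p = 0.020), and of 0.30 without mdx/mTR replicate 5. An antisense gene (Gm12500) overlaps 8.31% of its exon bases, and the counts may include its reads.

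Within the family, Ampd1 held nearly all counts in both groups. Ampd3 took 0.917% ± 0.175 of the counts of the 3 deaminase genes in WT against 3.31% ± 1.05 in mdx/mTR (mean ± SD, n = 6 mice), a difference of 2.40 percentage points and a ratio of 3.61 (exact permutation p = 0.0022, the smallest possible, adjusted p = 0.0087). All 6 mdx/mTR mice lay above all WT mice. Ampd2 took 0.491% ± 0.100 in WT against 0.864% ± 0.398 in mdx/mTR (exact permutation p = 0.024, adjusted p = 0.032). Those groups overlapped, and the adjusted p passed the threshold in 5 of the 12 tests that left out 1 mouse and missed it in 7, with the difference going down to 0.246 points without mdx/mTR replicate 5.

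Ak1, the main cytosolic adenylate kinase of muscle, lies at chr2:32621758-32635058 on the plus strand. Across mice Ak1 had (lowest, median and highest) 1480, 1552 and 1695 CPM in WT against 1351, 1536 and 1819 CPM in mdx/mTR. Replicates 1 and 6 of mdx/mTR lay above all WT mice and replicate 5 lay below them, so the mdx/mTR range enclosed the WT range. The mean was 1566 ± 86.2 CPM in WT against 1586 ± 185.7 CPM in mdx/mTR, a log2 fold change of 0.02 ± 0.08 (edgeR, adjusted p = 0.86), and 0.17 (adjusted p = 0.015) with library totals alone.

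**Figure D3:**
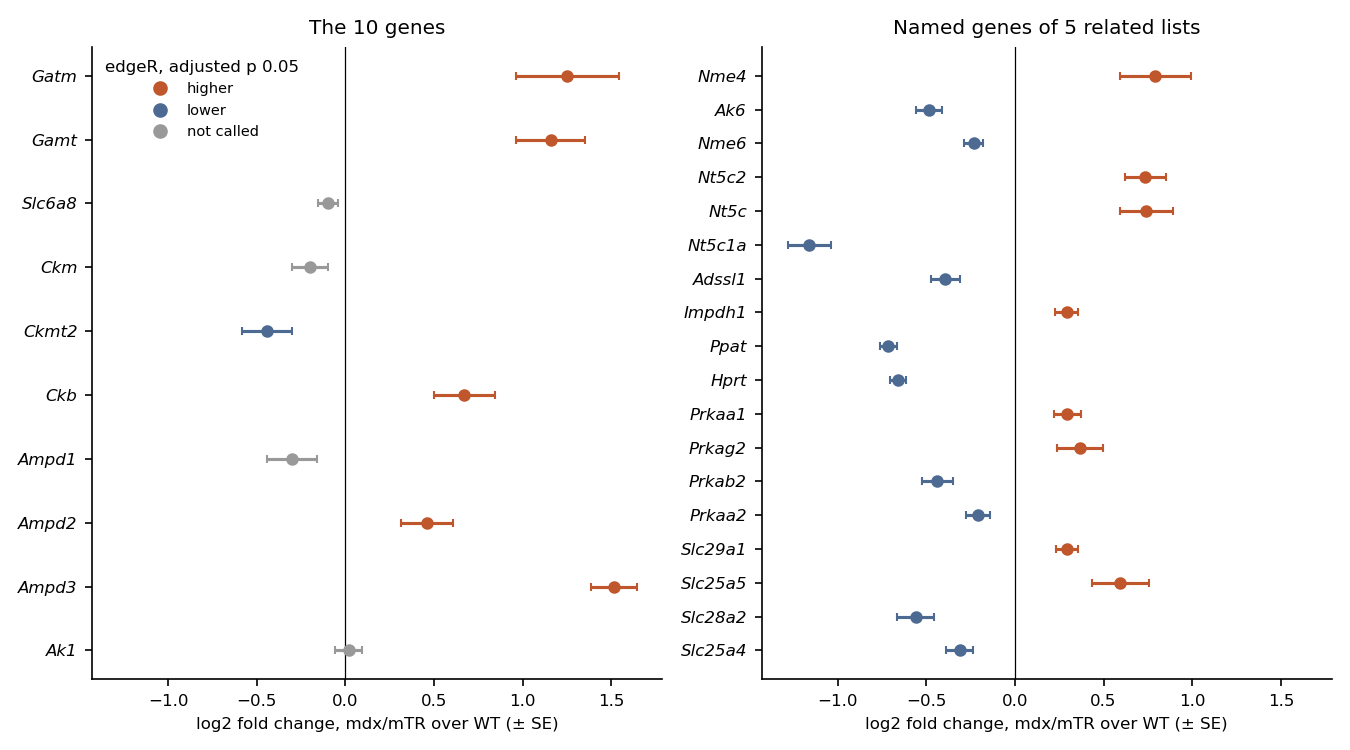
Log2 fold change between mdx/mTR and WT, ± SE, from edgeR, for the 10 genes and for named genes of 5 related lists; colours mark genes higher, lower or not called at an adjusted p of 0.05. Ampd3 (1.51) lies farthest to the right among the 10 and Ckmt2 (-0.44) farthest to the left.

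Apart from the shares of counts, which were not corrected for length, levels of different genes were set side by side only per kilobase of the principal transcript. Per kilobase, the mean WT shares were 0.0623% for Ckb, 18.1% for Ckmt2, 0.528% for Ampd3 and 0.317% for Ampd2. Ckm had 5540 ± 281 CPM per kb in WT (SD, n = 6), followed by Ckmt2 (1224 ± 188), Ak1 (751 ± 41.4), Ampd1 (576 ± 59.0) and Slc6a8 (56.8 ± 4.85). The 5 genes that rose came last, with Gamt at 7.45 ± 1.02, Ckb at 3.43 ± 0.42, Ampd3 at 3.05 ± 0.56, Gatm at 2.18 ± 0.07 and Ampd2 at 1.81 ± 0.18 CPM per kb. Ckb and Ampd3 differed by less than their SDs, and the other neighbours differed by more than the larger SD. In mdx/mTR the first 5 stood in the same order, from Ckm at 4828 ± 701 to Slc6a8 at 53.1 ± 2.04 CPM per kb, but Ckmt2 (901 ± 197) and Ak1 (761 ± 89.0) now differed by less than the SD of Ckmt2. Gamt came sixth at 16.6 ± 5.66 CPM per kb and Ampd3 moved up to 8.70 ± 1.38, above Ckb at 5.47 ± 1.83 and Gatm at 5.20 ± 3.34, which differed by less than their SDs. Each of the 5 low genes still lay below Slc6a8. The level of Ckm rests on its transcript of 2742 bases. The shorter coding model of 1235 bases can only raise that level, so it is no check of the order. Orders with other models of the remaining genes are not given.

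Mice of the mdx/mTR group differed from each other more than WT mice did in 8 of the 10 genes, by CV. The exceptions were Slc6a8 and Ampd3. The share of all genes tested with a larger CV in mdx/mTR was not computed, so the wider spread may not be particular to these genes. Replicate 5 of mdx/mTR had the highest Gatm, Gamt, Ckb and Ampd2 and the lowest Ckm, Ckmt2 and Ak1. On the log2 scale against the WT mean, it stood at 2.44 for Gatm, 1.73 for Gamt, 1.40 for Ckb and 1.08 for Ampd2, and at -0.49 for Ckm and -0.91 for Ckmt2. Replicate 1 had another outline, with the highest Ckm, Ampd1 and Ak1 and the lowest Ampd2 and Ampd3 of its group. Replicate 2 paired the lowest Ampd1 with the highest Ckmt2, so the muscle forms were not all low in the same mice.

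**Figure D4:**
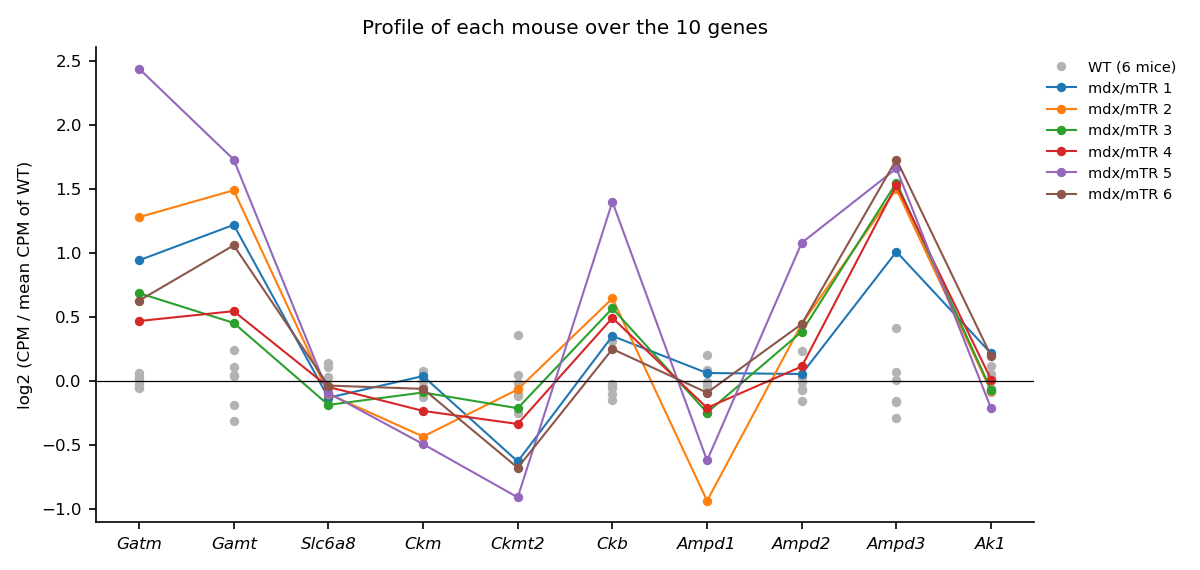
Level of each of the 10 genes in each mouse as log2 of CPM over the WT mean; grey points are the 6 WT mice and coloured lines the 6 mdx/mTR mice. Replicate 5 runs from 2.44 at Gatm to -0.91 at Ckmt2, while the Ampd3 points of all 6 mdx/mTR mice lie between 1.01 and 1.73.

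Markers of other cells moved with the group. The summed level of 8 markers of regenerating fibres and myoblasts was 70.4 to 85.9 CPM in WT and 163 to 609 CPM in mdx/mTR, and 7 of the 8 were higher and Cdh15 was lower. Within mdx/mTR this sum was 163, 324, 189, 214, 609 and 174 CPM in replicates 1 to 6. The highest values were those of replicates 5 and 2, the pair with the highest Gatm, Gamt and Ckb. From the lowest to the highest sum the order was replicates 1, 6, 3, 4, 2 and 5, and Ckm was lower at each step of that order, from 15610 to 10802 CPM. The sum of the 8 fast myofibre markers went down in the same order, from 193626 to 140313 CPM. Between the groups, Myh4 was lower and Mylpf higher in mdx/mTR, and the other 6 were not called. The same pair had the highest sums of macrophage (675 and 458 CPM), fibroblast (4393 and 4184 CPM), satellite cell (21.1 and 17.8 CPM) and slow myofibre markers (346 and 214 CPM). Not every marker of these lists followed its sum. Cd163 of the macrophage list was lowest in this pair (16.4 and 16.2 CPM). Dcn of the fibroblast list was highest in replicates 3 and 4 (544 and 529 CPM). Calcr of the satellite cell list was lowest in replicate 5 (0.533 CPM). In the slow list the pair was highest in Tnnt1, Tnni1, Tnnc1 and Atp2a2. Myh7 was instead highest in replicates 1 and 2 (29.9 and 26.7 CPM, with 10.7 CPM in replicate 5), and Myl3 was lowest in replicate 5 (13.9 CPM). The part of regenerating fibres or of these other cells in the levels of the 10 genes was not tested.

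**Figure D5:**
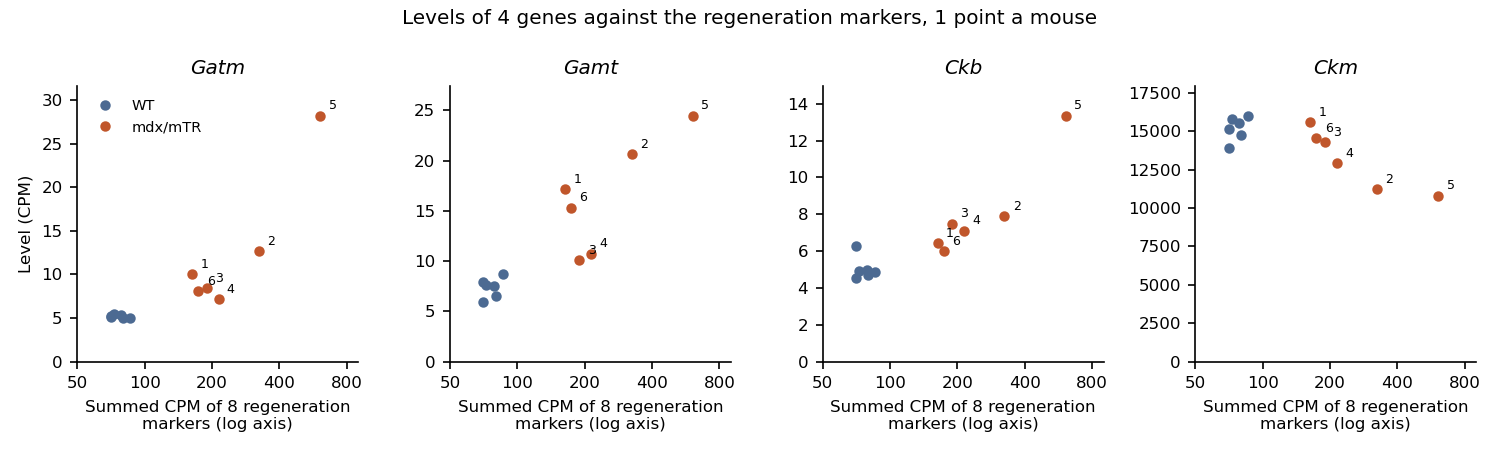
Level (CPM, linear axis from 0) of Gatm, Gamt, Ckb and Ckm against the summed CPM of 8 regeneration markers (log axis), 1 point a mouse, with mdx/mTR replicates numbered. Replicates 5 and 2 have the highest marker sums (609 and 324 CPM), the highest Gatm, Gamt and Ckb and the lowest Ckm.

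Macrophage markers were also higher (7 of 8), with sums of 91.5 to 156 CPM in WT and 252 to 675 CPM in mdx/mTR, and so were fibroblast markers (6 of 6; 853 to 1574 and 2183 to 4393 CPM). Satellite cell markers were higher for 2 of 4 (8.99 to 11.6 and 12.2 to 21.1 CPM). Slow myofibre markers were higher for 5 of 6 and lower for Myl3 (111 to 221 and 142 to 346 CPM). Of the markers of erythroid cells, in which Ampd3 was first described, 2 passed the filter, and 0 were called by edgeR (1 at an unadjusted p below 0.05), DESeq2 or limma-voom, with sums of 12.02 to 42.6 CPM in WT and 10.3 to 22.8 CPM in mdx/mTR over 5 markers. The erythroid markers Hba-a1 and Hbb-bs were listed at 0 in every library, for a reason not given. The erythroid sum therefore rests chiefly on Alas2 (11.5 to 41.6 CPM in WT and 9.82 to 22.3 CPM in mdx/mTR). The list is thus a limited measure of red cell content. Endothelial (3 of 5) and Schwann cell (3 of 4) markers were lower, at 429 to 579 and 346 to 466 CPM, and at 40.2 to 51.6 and 21.8 to 33.6 CPM. Smooth muscle markers (302 to 417 and 308 to 356 CPM) had 1 of 5 higher and 2 lower, adipocyte markers (18.9 to 27.9 and 17.6 to 52.1 CPM) had 0 of 3 tested called by edgeR, DESeq2 or limma-voom and 0 at an unadjusted p below 0.05 in edgeR, and none of the 4 T cell markers reached the filter. The part of the cells of these lists was not tested either.

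Of 56 other genes of the same pathways, in 5 lists, 52 were tested, and 11 were higher, 20 were lower and 21 did not pass the threshold. Their median log2 fold change was -0.07, against 0.01 over all genes tested and 0.24 for the 10 genes. With library totals alone, 17 were higher and 9 lower with a median of 0.08, and with upper quartile scaling 14 were higher and 16 lower. Of the 52 genes, 5 had every mdx/mTR mouse above every WT mouse and 13 had every one below. In the main fit, with TMM scaling, 25.0% of all genes tested were higher, 23.4% were lower and 12.6% lay without overlap in each direction. The higher counts of the related genes in that fit were near those shares, and the lower counts were above them. The related genes were not tested as a set.

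The 14 genes listed as relatives of the creatine and adenylate kinases included nucleoside diphosphate kinases (Nme genes). Of the 14, 10 were tested, and Ckmt1, the listed creatine kinase, was not. Of the tested genes, 2 were higher and 3 lower (median log2 fold change -0.04, and with library totals alone 4 and 1, median 0.12). Nme4, a mitochondrial nucleoside diphosphate kinase, rose from 1.20 ± 0.41 to 2.08 ± 0.24 CPM (mean ± SD, n = 6 mice; log2 fold change 0.79 ± 0.20). Ak6, a nuclear adenylate kinase, had a log2 fold change of -0.49 ± 0.07, but 59.1% of its exon bases overlap Taf9 and Rad17, so it is uncertain. Nme6 fell from 17.6 ± 0.96 to 15.0 ± 0.73 CPM, and lost its call with library totals alone (log2 fold change -0.08).

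Among 14 genes of the purine nucleotide cycle and purine breakdown, 4 were higher and 4 lower (median log2 fold change -0.03; with library totals alone 5 and 2, median 0.13). Adssl1, the muscle adenylosuccinate synthase that takes the IMP made by AMP deaminase back towards AMP, had 1161 to 1254 CPM in WT and 761 to 1109 CPM in mdx/mTR. The groups did not overlap, and the log2 fold change was -0.39 ± 0.08 (edgeR, adjusted p = 0.0014). Adsl, the lyase that completes the cycle, was not called (170.6 CPM in WT against 153 CPM in mdx/mTR, adjusted p = 0.055). The cytosolic 5′-nucleotidases, which remove the phosphate of various nucleotides, AMP and IMP among them, went in different directions. Nt5c1a, the muscle form that acts on AMP, fell from 22.2 ± 0.73 to 9.94 ± 2.21 CPM (mean ± SD, n = 6 mice), a log2 fold change of -1.16 ± 0.12 (edgeR, adjusted p = 8.7e-06), with all 6 mdx/mTR mice below all WT mice. Nt5c2, which prefers IMP and GMP, rose from 7.43 ± 0.49 to 12.4 ± 2.35 CPM (log2 fold change 0.74 ± 0.12), and Nt5c rose from 3.44 ± 0.42 to 5.75 ± 1.44 CPM (0.74 ± 0.15), both without overlap.

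Among 14 genes of purine salvage and de novo synthesis, 1 was higher and 8 lower, with a median log2 fold change of -0.17 (-0.02 with library totals alone, where 2 were higher and 3 lower). Ppat, the first enzyme of de novo synthesis, fell from 42.3 ± 2.47 to 25.8 ± 1.01 CPM (mean ± SD, n = 6 mice), a log2 fold change of -0.72 ± 0.05 (edgeR, adjusted p = 1.8e-07); Paics, on the opposite strand, overlaps 6.15% of its exon bases. Hprt, which salvages hypoxanthine and guanine, fell from 23.9 ± 1.10 to 15.1 ± 0.44 CPM, a log2 fold change of -0.66 ± 0.05 (edgeR, adjusted p = 2.8e-07). In both, the highest mdx/mTR mouse (26.8 and 15.7 CPM) was far below the lowest WT mouse (39.6 and 22.5 CPM). The gene that rose was Impdh1, which leads from IMP to guanine nucleotides (22.04 ± 1.86 to 27.0 ± 1.89 CPM).

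The list of the AMP-activated protein kinase, the sensor of AMP, had 8 genes: its subunits and the separate kinase gene Stk11. Of these, 2 were higher and 3 lower (median log2 fold change 0.02, and with library totals alone or upper quartile scaling 3 and 1). Stk11 was among the lower genes (log2 fold change -0.19 ± 0.07, edgeR, adjusted p = 0.045). The beta subunit gene Prkab2 and the alpha, catalytic subunit gene Prkaa2 were lower, Prkab2 from 721 ± 51.7 to 533 ± 70.2 CPM (log2 fold change -0.44 ± 0.09) and Prkaa2 from 512 ± 27.3 to 443 ± 44.3 CPM (-0.21 ± 0.07). The Prkaa2 call was lost with library totals alone (log2 fold change -0.06, adjusted p = 0.30), with upper quartile scaling (adjusted p = 0.052) and without WT replicate 5 (adjusted p = 0.053). Prkaa1, the other catalytic subunit, rose from 21.8 ± 1.59 to 26.8 ± 3.16 CPM without overlap. Prkag2 went from 20.4 ± 3.65 to 26.3 ± 4.82 CPM (edgeR, adjusted p = 0.030), and its call was lost without WT replicate 1, 2 or 4 or mdx/mTR replicate 2 (adjusted p 0.062 to 0.068). The other gamma subunit genes were not called, with a log2 fold change of 0.22 ± 0.17 for Prkag3 and -0.10 ± 0.05 for Prkag1 (edgeR, adjusted p = 0.30 and 0.11).

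Among 6 carriers of nucleotides and nucleosides, 2 were higher and 2 lower (median log2 fold change 0.15, and 0.09 without mdx/mTR replicate 2; with library totals alone 3 and 2, median 0.31). Slc25a4, the muscle ADP/ATP carrier that works beside Ckmt2, had 4620 to 4993 CPM in WT and 3106 to 4272 CPM in mdx/mTR, without overlap. Its log2 fold change was -0.31 ± 0.08 (edgeR, adjusted p = 0.0043), next to -0.44 ± 0.14 for Ckmt2. Replicate 5 of mdx/mTR was the lowest mouse for both, as it was for Ckm, Ak1, Adssl1 and the fast myofibre sum. The highest mdx/mTR mouse was replicate 3 for Slc25a4 and replicate 2 for Ckmt2. Slc25a5, the carrier of other tissues, had a log2 fold change of 0.60 ± 0.16, but 46.6% of its 50-base stretches also occur in pseudogenes. Slc29a1, an equilibrative nucleoside transporter, rose from 41.7 ± 3.62 to 51.1 ± 3.08 CPM. Slc28a2, a concentrative one, had a log2 fold change of -0.56 ± 0.10 and shares 39.6% of its stretches with Gm14085.

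In the authors' deposited table, the log2 fold change of Gatm was 1.05, against 1.25 from the counts here, and that of Gamt was 1.07, against 1.16. The authors' deposited table gave Ampd3 1.46 and Ckmt2 -0.44. For the genes nearest the threshold, the authors' deposited table gave an adjusted p of 0.052 for Ckm and 0.060 for Ampd1.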

How the data were processed

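RNA of the tibialis anterior of 12 mice was sequenced. The authors deposited whole-number counts per gene symbol, with 1 column a mouse and 0 columns left unmatched. Beside it, the authors deposited the result of their comparison: per the file headers, its columns are a mean signal over the libraries, a log2 fold change and its standard error, a score, and raw and adjusted p-values. The submitters' processing notes name FastQC, STAR, DESeq2 and mm10 (GRCm38) with no version or role. The read counter, annotation and strand handling are not given in the sources used here, so reads of overlapping genes on opposite strands may be counted together.

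Deposited counts went unchanged into edgeR 4.0.16 (limma 3.58.1, R 4.3.3): filterByExpr kept 13937 genes with 99.97% of counts, libraries were scaled by TMM, and the quasi-likelihood fit had group as its only term. Benjamini-Hochberg adjustment ran over all genes tested, with a threshold of 0.05. The procedure was tested on simulated counts. Shares were compared with exact permutation tests in Python 3.11.15 (scipy 1.17.1, pandas 2.3.3). DESeq2 1.42.0, limma-voom, other scalings and filters, a replicate block and each mouse left out were the alternatives, and all were run. No 2 replicates agreed within sampling noise (chi-square per degree of freedom 8.87 to 116). A count of 3, the floor at 95% confidence for a gene with none, was 0.0460 to 0.0837 CPM and covers counting error only.

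Positions, transcript lengths and shared 50-base stretches came from GENCODE M21 on GRCm38, and promoters from RefSeq (GRCm38.p6). The members, the related lists and the marker lists were chosen with earlier results of these data known. The genes named by rule are the 10 members, up to 2 higher and 2 lower genes of smallest p in each related list, and Dmd. Adsl, Ckmt1, Stk11, Prkag1, Prkag3, single markers and overlapping genes were named after their values were seen. Of the genes this rule names, 1 is not reported here.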

Additional observations from a re-analysis of the deposited data

Results flagged for a closer look

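In each group of 6 mice, the highest or lowest mouse was set against the others: it stood apart where its gap to the nearest mouse was over 0.625 of the whole range. Of 68 groups looked at (the 10 genes, the named related genes, Dmd and the 4 shares), 15 held such a mouse, against about 3.4 that chance gives at 1 in 20. The groups are not independent: the genes were measured in the same mice, and the shares are made of the same counts. Of the 15, 6 were mdx/mTR replicate 5 and 5 were WT replicate 2, so the excess over 3.4 is not a test.

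Replicate 5 of mdx/mTR stood above the other mice of its group in Gatm (28.2 CPM against 7.21 to 12.7 CPM), Ckb (13.4 CPM against 6.01 to 7.90 CPM) and Ampd2 (14.0 CPM against 6.87 to 9.01 CPM). It stood above them in the Ckb share of the counts of Ckm and Ckb (0.123% against 0.0412% to 0.0702%). It stood below them in Slc25a4 (3106 CPM against 3904 to 4272 CPM) and Nme6 (13.6 CPM against 15.0 to 15.7 CPM). This mouse also had the highest sums of regeneration markers (609 CPM) and macrophage markers (675 CPM); their part in these values was not tested.

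Replicate 1 of mdx/mTR was the lowest of its group in Ampd3 (25.1 CPM against 35.3 to 41.3 CPM). Replicate 2 of mdx/mTR was the lowest in Ppat (23.8 CPM against 25.8 to 26.8 CPM) and the highest in Prkag2 (35.6 CPM against 21.7 to 26.4 CPM).

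Replicate 2 of WT stood above the other WT mice in Ckb (6.28 CPM against 4.56 to 4.97 CPM), in the Ckb share (0.0451% against 0.0301% to 0.0320%), in the Ckmt2 share of the counts of Ckm and Ckmt2 (14.4% against 8.72% to 10.6%), in Slc29a1 (49.0 CPM against 39.6 to 41.0 CPM) and in Slc28a2 (23.7 CPM against 16.8 to 19.2 CPM). Replicate 3 of WT was the lowest in Prkaa1 (18.7 CPM against 21.8 to 23.0 CPM).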

How the results depend on the processing

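Of the 10 genes, Gatm, Gamt, Ckb, Ampd2 and Ampd3 were called higher in all 20 alternatives, and Ckmt2 was called lower in 19 of them. The count of higher genes was 5 to 6, and 5 in each fit without 1 mouse. The count of lower genes was 0 with library totals alone and 1 to 2 without 1 mouse; it was 2 without WT replicate 2 (Slc6a8 added, log2 fold change -0.13) and 2 without mdx/mTR replicate 1 (Ampd1 added, -0.39). Values of genes not called changed sign in Slc6a8 (0.0596 with library totals alone) and in Ak1 (-0.0250 without mdx/mTR replicate 1, -0.0187 without replicate 6, and up to 0.0574 without another mouse). Of the related genes, 17 were higher and 9 lower with library totals alone (5596 and 1560 over all genes tested). Without 1 mouse, 11 to 14 were higher and 16 to 21 lower. The Ckmt2 share differed by -2.24 to -0.697 points without 1 mouse. The Ampd2 share differed by 0.246 to 0.450 points (exact permutation tests, adjusted p up to 0.0635), the Ckb share by 0.0186 to 0.0350 points and the Ampd3 share by 2.12 to 2.71 points. The labels name no pairing of the same-numbered mice of the groups. The correlations of their deviations ran from -0.139 to 0.334, with 2 of 6 above 0.1 (replicates 1 and 2). Mice of different numbers were not compared, so a link between same-numbered mice cannot be judged from these values. With a replicate block 5 of the 10 genes were higher and 1 lower (Ckmt2 -0.46, Gatm 1.08), and 13 related genes were higher and 20 lower. With 6 mice a group, the exact tests of shares cannot go below p = 0.0022, or 0.031 with the replicate block.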
